A study of Saccharomyces cerevisiae with 2 samples.

Results

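The positions described here are the nucleosome centres of budding yeast chromosome III that flank the longest internal stretches with no called nucleosome. They were taken by coordinate, as all centres from 80000 to 95000 and from 143000 to 157000 bp in build sacCer2, in each of 4 deposited lists. This gave 174 of 2353 centres in the paired-end list of total chromatin, 170 of 2264 in the paired-end list of the H2A.Z library, 135 of 1881 in the single-end list of total chromatin and 132 of 1859 in the single-end list of the H2A.Z library, or 611 of 8357 entries in all. The interval from 80000 to 95000 is called the first interval and that from 143000 to 157000 the second. They are compared with the other internal centres, called the rest, which lie between 30094 and 285952 bp and number 1733, 1660, 1384 and 1379 in the same order of lists. The intervals were chosen by the distances between neighbouring centres in these lists, because they lack positions, so the length of the empty stretches and the number of centres are a description of that choice and not a result.

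A nucleosome is a stretch of DNA wrapped around a core of histone proteins, and most yeast genes carry a row of evenly spaced nucleosomes that starts at an open promoter. H2A.Z, encoded by HTZ1 in yeast, replaces the histone H2A mainly in the nucleosomes beside promoters. Transfer RNA genes are short genes with little room for nucleosomes over their bodies, and the retrotransposons called Ty elements often insert beside them. Ty elements and their long terminal repeats occur in many near-identical copies, so short reads from them often cannot be placed at a single site, and their sites differ between laboratory strains. In assembly R64, chromosome III holds a cluster in the order YNCC0001C (a tRNA gene), YCL021W-A, YCL019W, YCL020W, SUP53 (a tRNA gene) and LEU2, which encodes an enzyme of leucine synthesis, and another in the order CWH43, SRD1, YNCC0008W and YNCC0009C (both tRNA genes) and MAK32. The lists use another build, so no position was assigned to these genes.

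Both libraries came from strain yFR212, in a W303 background, with the alleles MATa, ura3-1, his3-11,15, can1-100, ade2-1, leu2-3,112, trp1-1, psi+, GAL+ and HTZ1::3myc, the last of which places Myc epitope tags at the end of the H2A.Z protein. YPD cultures at an OD600 of 0.8 were crosslinked in 1% formaldehyde, and chromatin was cut for 20 min at 37 °C by micrococcal nuclease, an enzyme that digests the DNA between nucleosomes. The total library holds DNA of all mononucleosomes, and the H2A.Z library holds mononucleosomes precipitated with an anti-Myc antibody, for which the labels give differing clones and differing fixation times. There was 1 library per group and no library from untagged cells, so the libraries are compared without a replicate check, no test between groups was made, and the background of the precipitation was not measured. The strain's W303 background also differs from the reference strain behind the coordinates.

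Each entry of a list gives a centre, the spacing of its forward and reverse read peaks, the variance of the read positions on each strand and a score whose scale is not stated. Scores were therefore read only as percentiles within a list, where 100 is the top of the list. The lists carry no read counts, so depth is unknown. Intervals are 95% Wilson intervals for shares and order-statistic intervals for medians, combined for differences. They treat centres as independent, although neighbouring centres share reads, and they cover counting error only. The paired-end and single-end lists of a library come from the same sample and are not replicates of each other.

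There were 4 empty stretches longer than 1000 bp in the intervals, and each was found in all 4 lists. In total paired-end data they ran from 85153 to 86742 bp (1589 bp), from 86742 to 88065 bp (1322 bp), from 88126 to 90720 bp (2594 bp) and from 148545 to 151864 bp (3319 bp). The first 3 follow one another and are parted by single centres or a close pair. They take up 36.7% of the first interval, and the fourth takes up 23.7% of the second. The edges were placed nearly alike by all lists, with a spread of 26 and 2 bp for the first stretch, 2 and 52 bp for the second, 10 and 2 bp for the third, and 15 and 106 bp for the fourth. The regions in which the model looked for centres also ended there, leaving 2325 to 2350 bp without any such region in the third stretch and 3046 to 3070 bp in the fourth. Whether these stretches lack nucleosomes or lack reads that could be placed cannot be told apart from these lists. Outside the stretches the intervals were not sparse. The total paired-end list held 7.69 centres per kb in the first interval and 9.46 in the second, against 7.63 in the rest, and the H2A.Z paired-end list held 8.00 and 8.80 against 7.31.

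A lone called position lay between the first and the second stretch. It was centred at 86742 bp in both total lists and at 86744 bp in both H2A.Z lists, with 1322 to 1614 bp to the next centre on each side. Its score percentile was 11.4 in total paired-end, 26.8 in H2A.Z paired-end, 7.4 in total single-end and 21.1 in H2A.Z single-end data, so it was weak in every list and lower in total than in H2A.Z data. Between the second and the third stretch, total paired-end data had centres at 88065 and 88126 bp, 61 bp apart, which is less than the length of DNA in a nucleosome, at percentiles of 5.6 and 6.8. The H2A.Z lists had a single centre there, at 88117 bp (percentile 7.0) in paired-end and 88116 bp (4.1) in single-end data. With both neighbours over 200 bp away, 1 of 174 total paired-end centres in the intervals was isolated, against 0.467% of that list, and so were 2 of 170 H2A.Z paired-end centres, against 0.883% of that list. The single-end counts were 2 of 135 in total, against 1.49% of the list, and 5 of 132 in H2A.Z data, against 2.26%. Isolated positions were thus few. The paired-end difference from the rest was 0.17 percentage points in total (interval -0.47 to 2.79) and 0.45 in H2A.Z data (-0.55 to 3.48), within counting error. The isolated paired-end centres, at 86742 bp in total and at 86744 and 88117 bp in H2A.Z data, are those between the stretches. The stretches led to the choice of the intervals, so these shares are a description of that choice and not a result.

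The stretches are bounded by neighbouring total paired-end centres, so that list has no centre inside them by construction. The total single-end list had no centre over 50 bp inside a stretch, and the H2A.Z library had such a centre. It lay at 151758 bp in both H2A.Z lists, 106 bp into the fourth stretch as total paired-end data bound it, at percentiles of 62.7 in paired-end and 55.9 in single-end data. The nearest total centres were the edge itself at 151864 bp (percentile 9.1) and, in single-end data, 151845 bp (3.8), which lies 18 bp inside the same stretch.

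At the limits of the intervals, which the choice of members set, total paired-end centres changed from 79973 bp (percentile 56.4) outside to 80146 bp (88.9) inside, from 94913 bp (93.7) inside to 95076 bp (96.9) outside, from 142914 bp (83.3) outside to 143085 bp (66.7) inside, and from 156995 bp (79.0) inside to 157125 bp (51.2) outside. In H2A.Z paired-end data the same limits fell between 79963 (66.6) and 80134 bp (70), 94984 (9.4) and 95048 bp (22.6), 142817 (43.6) and 143094 bp (88.4), and 156998 (86.7) and 157089 bp (64.7). The single-end percentiles outside and inside were 62.1 and 81.3, 79.6 and 93.6, 83.1 and 63.5, and 38.6 and 81.2 in total, and 61.8 and 66.9, 34.6 and 47.8, 53.0 and 86.5, and 59.9 and 88.3 in H2A.Z data, in the order of the limits.

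Nucleosome spacing was less regular in the intervals than in the rest in every list. Distances of 140 to 200 bp between neighbouring centres, the usual repeat of yeast chromatin, made up 48 of 168 in total paired-end data, or 28.6% (22.3 to 35.8%), against 43.3% of the rest and 41.2% of the whole list. In H2A.Z paired-end data they made up 53 of 164, or 32.3% (25.6 to 39.8%), against 44.9% of the rest and 42.2% of the list. The single-end lists, which hold fewer closely packed centres, had 73 of 129 (56.6%) in total and 58 of 126 (46.0%) in H2A.Z data, against 67.3% and 61.3% of the rest and 64.3% and 58.1% of the lists. The differences were -14.7 percentage points in total paired-end data (-21.5 to -7.14) and -12.6 in H2A.Z paired-end data (-19.7 to -4.75), larger than counting error. Within 1000 bp of an edge the shares were lower than over the whole intervals in all lists. They were 5 of 28 (17.9%) in total and 6 of 31 (19.4%) in H2A.Z paired-end data. In single-end data they were 8 of 26 (30.8%) and 6 of 22 (27.3%). These distances are few and are also part of the whole intervals, so a change towards the edges was not tested. The distances spanning the stretches themselves are in none of these counts. The intervals were nonetheless chosen by distances between centres of these same lists, so the shares are given as a description.

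Short distances were more frequent in the intervals, which is likewise a description, since distances between centres led to their choice. Centres under 100 bp apart made up 63 of 168 distances in total paired-end data (37.5%, against 29.8% of the rest and 30.6% of the list) and 61 of 164 in H2A.Z paired-end data (37.2%, against 25.2% and 26.9%). In single-end data they made up 19 of 129 in total (14.7%, against 7.32% and 9.04%) and 19 of 126 in H2A.Z data (15.1%, against 8.65% and 9.8%). Under 73 bp the excess was within counting error, at 22.0% against 18.4% of the rest in total (difference 3.63 percentage points, -2.28 to 10.7) and 17.7% against 13.1% in H2A.Z paired-end data (4.58, -0.78 to 11.3). The median distance was 114 bp in total and 120 bp in H2A.Z paired-end data, against 139 and 142 bp in the rest. Long distances over 200 bp were about as frequent as elsewhere, at 5.36% against 5.84% in total and 4.88% against 6.46% in H2A.Z paired-end data. With centres under 100 bp from a higher-scoring one removed, the regular share was 53.0% against 66.0% in total and 56.6% against 62.9% in H2A.Z paired-end data, and in the latter the difference was within counting error (-6.31, -15.9 to 2.85).

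**Figure D1:**
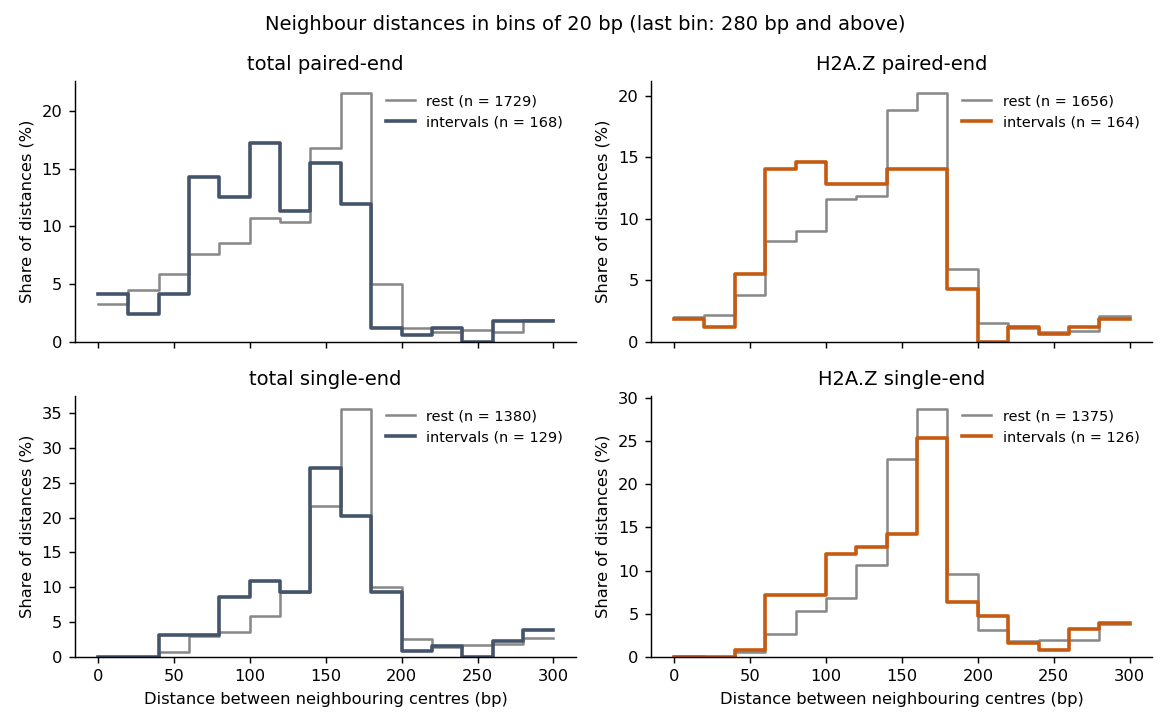
Share of distances between neighbouring centres in bins of 20 bp, for the intervals (coloured line) and the rest (grey line), in each of the 4 lists, without the distances across empty stretches. In the paired-end lists the intervals have more distances of 60 to 120 bp and fewer of 160 to 180 bp than the rest.

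Runs of regularly spaced centres took in fewer members of the intervals than of the rest. A run cannot cross an empty stretch, so centres beside one are in runs less often by construction, and these shares are given as a description. After close centres were removed, 48 of 123 total paired-end centres, or 39.0%, stood in a run of at least 4 centres with regular steps, against 62.8% of the rest, and 55 of 119 (46.2%) against 57.2% did so in H2A.Z data. Within 1000 bp of an edge the share was 6 of 26 (23.1%) in total and 5 of 28 (17.9%) in H2A.Z paired-end data. In single-end data it was 9 of 25 (36.0%) and 1 of 24 (4.17%). Farther out it was 43.3%, 54.9%, 67.7% and 51.1% in the same order of lists. Within 500 bp of an edge 0 of 16 H2A.Z paired-end centres (at most 19.4% by the Wilson interval) and 3 of 15 total paired-end centres stood in such a run. In total paired-end data the count was 3 of 11 at 500 to 1000 bp, 3 of 26 at 1000 to 2000 bp, 11 of 22 at 2000 to 3000 bp, 16 of 24 at 3000 to 4000 bp and 12 of 25 at 4000 to 6000 bp. In H2A.Z paired-end data it was 5 of 12 at 500 to 1000 bp and 13 of 22 at 1000 to 2000 bp. Other breaks end runs as well. Within 500 bp of the gaps over 300 bp in the rest, 54.8% of 135 total and 60.7% of 140 H2A.Z paired-end centres stood in a run, and within 1000 bp of the 1 other stretch over 1000 bp 6 of 8 total and 2 of 9 H2A.Z paired-end centres did. This measure was added after the data were seen.

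The flanks were not alike. The left flank of the second interval was the least regular, with 8 of 53 total paired-end distances at 140 to 200 bp (15.1%, 7.85 to 27.1%) and 13 of 48 (27.1%) in H2A.Z data. The right flank of the first interval was the most regular in total paired-end data, at 13 of 29 (44.8%, 28.4 to 62.5%), close to the rest. Between these stood the left flank of the first interval, at 14 of 39 (35.9%), and the right flank of the second, at 13 of 46 (28.3%). The counting intervals of the least and the most regular flank do not overlap, but these flanks were picked as the extremes and their difference was not tested. The order of the flanks between them is within counting error. The arrays can be followed centre by centre. Left of the fourth stretch, once close centres were removed, total paired-end centres stepped from 148545 bp by 157, 153, 134 and 143 bp to 147958 bp, then across 322 bp to 147636 bp and on by 159, 166 and 164 bp. Right of the third stretch the first steps were 116, 136, 271 and 140 bp, the last rounded from a value just below 140 bp. The first run of regular steps there, 3 centres long, began at 91383 bp. Unlike the shares of the flanks, these steps leave out close centres.

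The fuzziness of the positions did not set the intervals apart in a way that all lists share. Fuzziness is given as the SD of the forward read positions around a centre. Its median was 25.04 bp in the intervals and 25.3 bp in the rest in total paired-end data, and 25.9 against 27.0 bp in H2A.Z paired-end data. In single-end data it was higher in the intervals, at 32.2 against 29.7 bp in total and 31.9 against 30.7 bp in H2A.Z data. The difference of -1.10 bp in H2A.Z paired-end data (-1.74 to -0.17) and that of 2.48 bp in total single-end data (0.88 to 4.41) exceed counting error and point in opposite directions. No difference in fuzziness with distance from the stretches was detectable, with medians of 25.1 bp within 1000 bp of an edge and 25.03 bp beyond in total, and 26.4 and 25.9 bp in H2A.Z paired-end data. The near minus far differences, 0.05 bp (-1.62 to 4.09) and 0.58 bp (-0.88 to 3.53), were within counting error.

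Scores of total chromatin were low in the intervals, and scores of the H2A.Z library were high. The median percentile was 45 in total paired-end data (39.5 to 51.4), against 53.3 in the rest, and 59.3 in H2A.Z paired-end data (54.1 to 64.3), against 50.7 in the rest. In single-end data it was 43.3 against 53.9 in total and 57.5 against 50.8 in H2A.Z data. The differences were -8.27 points in total (-14.3 to -1.36) and 8.59 points in H2A.Z paired-end data (2.95 to 14.2). In single-end data they were -10.6 (-16.7 to -3.22) and 6.70 points (-0.16 to 15.8), the second within counting error. In the upper 75% of scores the H2A.Z difference was 5.61 points (-2.71 to 12.3), also within it. The opposite directions of the libraries were not tested against each other.

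The low scores of total chromatin lay beside the stretches. Within 1000 bp of an edge, with the centres between stretches counted in, 34 total paired-end centres had a median percentile of 20.6 (10.2 to 36.2), against 50.2 for the 140 centres farther out. In single-end data the medians were 17.7 (32 centres) and 48.7 (103 centres). In the H2A.Z library the near-edge medians were 63.3 in paired-end (37 centres) and 63.9 in single-end data (28 centres), against 57.3 and 56.5 farther out. The near-edge difference was -29.6 points in total (-41.5 to -12.7) and 5.97 points in H2A.Z paired-end data (-21.5 to 19.2), the second within counting error. Among the upper 75% of scores, which leaves out the lowest percentiles by construction, the difference in total was -13.6 points (-25.2 to 0.85). The sign in H2A.Z data rested on the right flank of the second interval: without it the near-edge median was 40.0 against 53.9 (-13.9, -28.2 to 13.8), and within 500 bp of an edge it was 48.7 against 59.4 beyond (-10.7, -31.7 to 9.71).

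The lowest 25% of the total paired-end list held 13 of 19 centres within 500 bp of an edge (68.4%, 46.0 to 84.6%), against 25% of the list by construction, and that of the H2A.Z paired-end list held 3 of 20 (15.0%, 5.24 to 36.0%), against 25%. In single-end data the counts were 13 of 18 and 5 of 17, each against 25%. By distance, the total paired-end median went from 14.1 within 500 bp to 33.9 at 500 to 1000 bp, 39.4 at 1000 to 2000 bp, 51.2 at 2000 to 3000 bp, 56.3 at 3000 to 4000 bp and 60.1 at 4000 to 6000 bp. The H2A.Z medians at the same distances were 48.7, 75, 60.3, 42.4, 60.3 and 63.0, with no such order. The 4 flanks belong to 2 places on the chromosome, so the bins hold few independent regions.

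**Figure D2:**
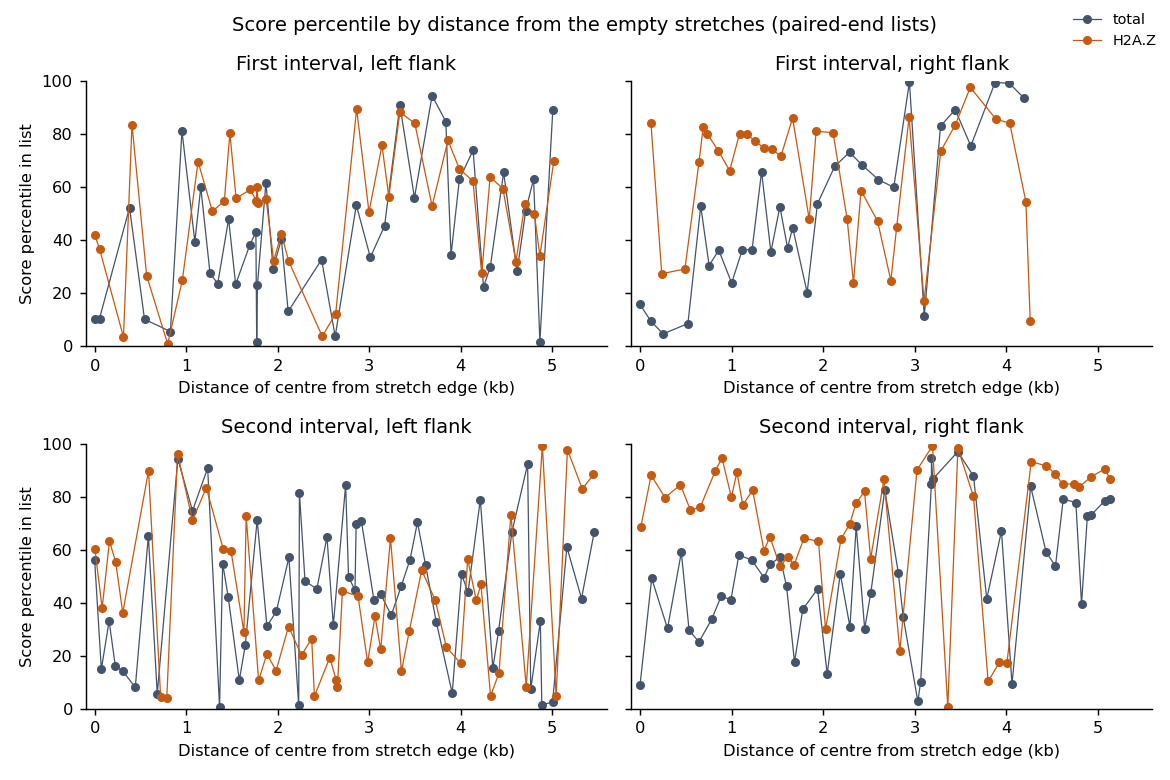
Score percentile of each paired-end centre against its distance in kb from the outer edge of the empty stretches, in the 4 flanks (total chromatin dark, H2A.Z library orange). In the right flanks H2A.Z percentiles lie mostly above total percentiles over the first kb, while in the left flank of the second interval they lie mostly below total from 2 to 4 kb.

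The centres at each edge show how the libraries part. Left of the first stretch, the centres at 85100 and 85153 bp had total paired-end percentiles of 10.4 and 10.2, and H2A.Z percentiles of 36.7 and 42.1 at centres under 1 bp away. Right of the third stretch, the edge centre at 90720 bp was weak in both, at 15.7 in total and 8.5 in H2A.Z data. The next centre, at 90836 bp in total and 90839 bp in H2A.Z data, was at 9.5 and 84.2, and in single-end data at 6.3 and 81.2. It is the clearest single case in which both list types place a centre low in total and high in H2A.Z chromatin.

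At the fourth stretch the left edge centre stood at 148545 bp, with percentiles of 56.0 in total and 60.4 in H2A.Z paired-end data. The next centres away from the stretch, at 148472 and 148387 bp, had total percentiles of 14.9 and 33.1, and H2A.Z percentiles of 38.0 and 63.3 at 148463 and 148383 bp. The right edge centre, at 151864 bp in total and 151871 bp in H2A.Z data, was at 9.1 and 68.4. The next were at 49.2 and 88.1 (151991 and 151985 bp) and at 30.3 and 79.7 (152164 and 152137 bp). Every one of the 3 centres nearest this edge thus ranked higher in the H2A.Z list.

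H2A.Z percentiles exceeded total percentiles at matched centres of the intervals. The difference was largest near the stretches, where total percentiles were low. Centres of the libraries that were each other's nearest and lay within 20 bp formed 115 paired-end pairs in the intervals. The H2A.Z minus total percentile ran from -84.0 to 97.9 with a median of 11.8 points (5.59 to 17.1), and 80 of 115 pairs were above 0. In the rest the median was -3.42 points over 1138 pairs. The difference of 15.2 points (8.84 to 20.8) exceeds counting error. In the first interval the paired-end median was 6.19 points in the left flank (-2.52 to 26.3) and 14.6 in the right (-9.68 to 27.4). In the second it was 4.37 in the left (-15.7 to 22.1) and 14.4 in the right (10.2 to 32.5). Only the last of these counting intervals leaves out 0. The single-end medians of the flanks were 9.92, 3.81, -4.25 and 15.3 points in the same order. H2A.Z was over 25 points higher in 36 of 115 pairs, or 31.3%, against 136 of 1138 pairs of the rest and 15% of all pairs, and over 25 points lower in 12, or 10.4%, against 17.2% of the rest and 16.3% of all pairs. In single-end data the median was 6.87 points over 102 pairs, against -2.22 in the rest, with 28 pairs over 25 points higher (27.5%, against 13.9% of all pairs) and 14 over 25 points lower (13.7%, against 13.6%).

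Within 1000 bp of an edge, 24 paired-end pairs ran from -56.3 to 74.7 points with a median of 25.9 (16.5 to 38.9), and 22 of them were above 0. The 91 pairs farther out had a median of 8.23 (2.67 to 12.6). The libraries differed in how their percentiles changed with distance. The median H2A.Z percentile of paired-end pairs was 65.9 near an edge, 63.8 farther out and 60.3 in the rest. The median total percentile was 27.4, 53.2 and 65.9 in the same order. The near-edge difference thus went mostly with low total percentiles and not with higher H2A.Z percentiles. In single-end data the 20 near-edge pairs had a median of 31.4 points (6.42 to 37.9), with 19 above 0, against 3.95 for the 82 pairs farther out. By distance, paired-end medians were 25.5 within 500 bp (15 pairs), 37.4 at 500 to 1000 bp (9 pairs), 14.9 at 1000 to 2000 bp (26 pairs), 8.67 at 2000 to 3000 bp (19 pairs), -5.64 at 3000 to 4000 bp (21 pairs) and 7.74 at 4000 to 6000 bp (25 pairs). The single-end medians were 28.4, 35.9, 17.1, -16.6, -5.78 and 7.13, so the list types differ in sign at 2000 to 3000 bp.

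**Figure D3:**
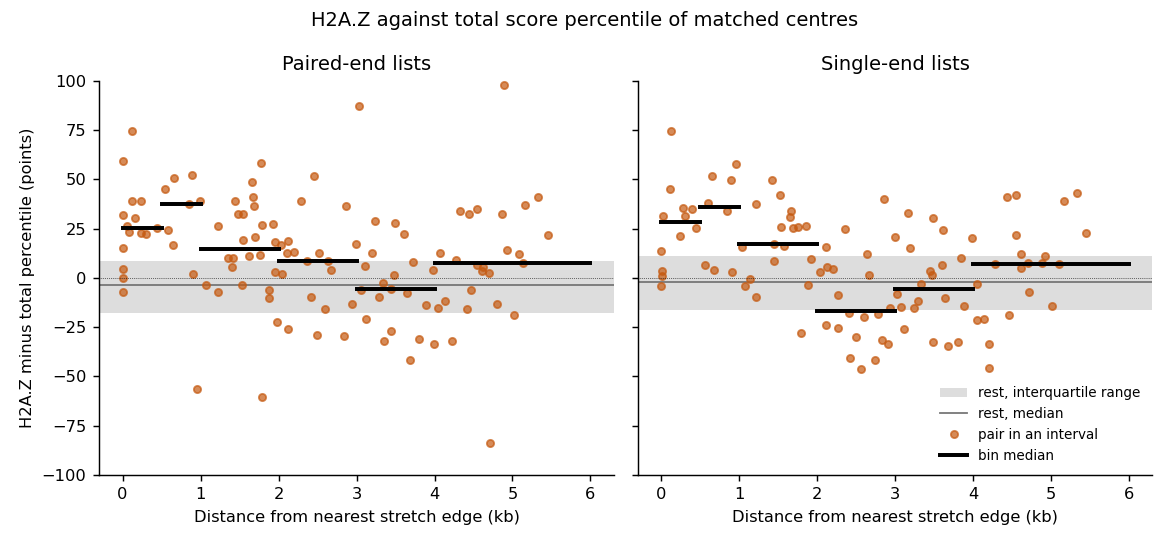
H2A.Z minus total score percentile, in points, of matched centres in the intervals against the distance in kb from the nearest edge of an empty stretch. Points are pairs, black bars are medians of distance bins, and the grey line and band are the median and interquartile range of the rest. Most pairs within 1 kb of an edge lie above the grey band in both list types.

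In each flank the near-edge median was above the median farther out, and the pairs within the group of 3 stretches had smaller differences than the near-edge medians. The near-edge median was 26.3 points left of the first stretch (3 pairs), 30.0 right of the third (4 pairs), 23.1 left of the fourth (7 pairs) and 45.4 right of the fourth (7 pairs), against 3.98, 0.10, -6.82 and 12.3 points farther out in the same flanks. Left of the first stretch the 3 near-edge pairs ran from -56.3 to 31.8 points. The 2 of them above 0 lie at 85100 and 85153 bp, where each single-end list has 1 centre. Right of the fourth stretch all 7 near-edge pairs were over 25 points higher, from 25.5 to 59.4. The pairs at 86744, 88117 and 90720 bp, the last of them the edge centre of the third stretch, were at 15.3, 0.14 and -7.16 points and are not counted in a flank, since their H2A.Z centres lie inside the edges. The near-edge medians of single-end data were 31.5, 27.7, 17.5 and 45.2 points in the flanks, where the edge pair of the third stretch (-4.08 points at 90722 bp) counts among the 6 pairs of its right flank. With this few pairs in a flank, the order of the flanks is not resolved.

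A pair whose total percentile is low has more room above it than below, so pairs were also compared at like total percentiles, a comparison added after the data were seen. In paired-end data, among pairs at total percentiles up to 25, the median H2A.Z minus total difference was 29.1 points in the intervals (22 pairs) and 12.8 in the rest (167 pairs). From 25 to 50 it was 17.6 (36 pairs) against 0.31 (226 pairs), from 50 to 75 it was 6.43 (35 pairs) against -7.69 (300 pairs), and above 75 it was -6.51 (22 pairs) against -8.48 (445 pairs). The counting intervals of members and rest did not overlap in the middle classes. The single-end medians were 17.1 against 9.40, 24.7 against 0.39, 4.29 (-18.8 to 11.0) against -5.93 (-10.9 to -0.78) and -9.13 against -7.51 points, so there the intervals overlapped from 50 to 75.

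The contrast of near with far held in only part of these classes. In paired-end data, up to a total percentile of 25, 11 near-edge pairs had a median of 23.1 points and 11 farther pairs 32.5. From 25 to 50, 7 near-edge pairs had a median of 38.9 points (30.2 to 52.1) and 29 farther pairs 11.8 (2.16 to 26.9). From 50 to 75, 4 near-edge pairs had 20.5 points and 31 farther pairs 5.47. Above 75, 2 near-edge pairs had -27.2 points and 20 farther pairs -6.51. At the lowest total percentiles the order of near and far was the opposite in single-end data, where 10 near-edge pairs had a median of 26.3 points (1.01 to 57.8) and 7 farther pairs 15.6 (-8.54 to 34.2), so it is not resolved.

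Within the flanks the difference varied along the chromosome. The windows from 151000 to 152000 and from 152000 to 153000 bp had paired-end medians of 49.1 and 45.4 points, the windows from 91000 to 92000 and from 92000 to 93000 bp had 27.0 and 27.4 points, and the windows from 148000 to 149000 and from 143000 to 144000 bp had 23.1 and 29.3 points. By contrast, the windows from 144000 to 145000, from 145000 to 146000 and from 146000 to 147000 bp had -15.7, -20.8 and -22.5 points, and those from 93000 to 94000 and from 94000 to 95000 bp had -11.5 and -9.46 points. Over the 219 windows of the rest with at least 3 pairs the median was -2.51 points, and 9.13% were above 20 points and 15.1% below -20. The interquartile range of those windows of the rest was -14.6 to 5.49 points, and the windows from 93000 and from 94000 bp lie inside it. Left of the fourth stretch, windows above 20 and below -20 points lay within a few kb of each other, and windows of both kinds occur in the rest. The window from 143000 bp holds pairs at 97.9 and -84.0 points, and its single-end median was 22.3 points. Windows with 2 pairs, such as those from 151000 and from 91000 bp, rest on those pairs alone.

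Other breaks in the map did not show the same difference. The rest holds 1 more stretch over 1000 bp, from 199481 to 201150 bp in total paired-end data. The 10 pairs within 1000 bp of it had a median of -11.4 points (-33.0 to -1.75), and 0 of 10 were above 0. Within 1000 bp of any of the 21 gaps over 300 bp in the rest, that stretch included, the median was -1.10 points over 206 pairs (-3.37 to 1.56). The near-edge value of the intervals, 25.9 points, lies outside both intervals. Low total scores were not confined to the edges in the intervals. The median total percentile of the 10 pairs beside the other stretch was 41.0, and their median H2A.Z percentile was 15.0. For total it was 27.4 in the near-edge pairs of the intervals, 66.8 in the 206 pairs beside gaps and 65.9 over all pairs of the rest.

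The largest differences of single pairs rest on entries whose fit stood apart. The highest, 97.9 points, paired the H2A.Z centre at 143652 bp (rank 17) with the total centre at 143658 bp (rank 2320), whose reverse read SD was 32000 bp. In single-end data the total centre at 143651 bp ranked 145 and the H2A.Z centre at 143657 bp ranked 4, a difference of 7.5 points. The next, 87.4 points at 154891 bp, paired rank 224 with a total entry at rank 2288 whose reverse read SD was 2490 bp, and the single-end difference was -8.3 points. The lowest, -84.0 points at 143828 bp, had a reverse read SD of 219 bp in the H2A.Z entry, and the single-end difference was -7.1 points. These extremes of the paired-end lists are therefore not shared by the single-end lists of the same libraries. The pair at 90839 bp (74.7 points) and those at 146753 bp (-60.4) and 84195 bp (-56.3) had single-end differences of 74.9, -28.1 and -50.0 points. Without entries of a reverse variance above 10000 squared bp the median over the intervals was 11.5 points, against -3.60 in the rest.

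How often centres of the libraries coincided, in the intervals against elsewhere, depended on the entries used. With all entries, of 170 H2A.Z paired-end centres, 117 had a total centre within 20 bp, or 68.8% (61.5 to 75.3%), against 69.1% of the rest and 69.4% of the list. With close centres removed the share was 63.0% against 72.9% of the rest (-9.87 percentage points, -19.1 to -1.37), and among entries with whole identifiers it was 69.4% against 57.6% (11.8, 2.75 to 19.7), so these choices gave differences beyond counting error in opposite directions. Within 50 bp the share was 160 of 170, or 94.1%. In single-end data 77.3% of 132 centres matched, against 83.5% of the rest and 82.4% of the list, a difference of -6.27 percentage points (-14.3 to 0.38) that is within counting error. The right flank of the first interval had the lowest paired-end share, 18 of 33, or 54.5% (38.0 to 70.2%). A centre in the H2A.Z list is only a position in that library, so these shares do not measure how many nucleosomes carry the variant.

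Near the stretches more positions had closely spaced read peaks. The spacing of a position's forward and reverse read peaks, which follows the length of DNA that the enzyme left, had a median of 126 bp in total and 125 bp in H2A.Z paired-end data in the intervals, as in the rest. Distances below 114.8 bp, the 5th percentile of the total paired-end list, were found in 7 of 34 total paired-end centres within 1000 bp of an edge, or 20.6% (10.3 to 36.8%), against 2.14% of the 140 centres farther out, 5.14% of the rest and 5.01% of the list. In H2A.Z paired-end data they were found in 8 of 37, or 21.6% (11.4 to 37.2%), against 3.76% of 133 farther out, 3.31% of the rest and 3.62% of the list. In single-end data they were found in 5 of 32 total centres (15.6%, against 7.66% of the list) and 9 of 28 H2A.Z centres (32.1%, against 5.49%).

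The near minus far difference was 18.4 percentage points in total (7.46 to 34.7) and 17.9 in H2A.Z paired-end data (6.58 to 33.6), larger than counting error, and 5.92 points in total single-end data (-5.45 to 22.6), within it. Members of this set were the lone position, at 107.7 bp in total and 108.4 bp in H2A.Z paired-end data, the centre at 90836 bp, at 102.5 bp, its neighbour at 90972 bp, at 105.5 bp, and the H2A.Z centre inside the fourth stretch at 151758 bp, at 106.9 bp. Around the 21 other gaps over 300 bp the share within 1000 bp was 5.92% in total and 2.84% in H2A.Z paired-end data, near the background. The near-edge counts of the libraries rest in part on shared sites, so they are not separate support. Such sites lie at 84199, 86742 and 90836 bp in total and at 84195, 86744 and 90839 bp in H2A.Z paired-end data. The measure of short peak distances and its limit were chosen after the data were seen.

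**Figure D4:**
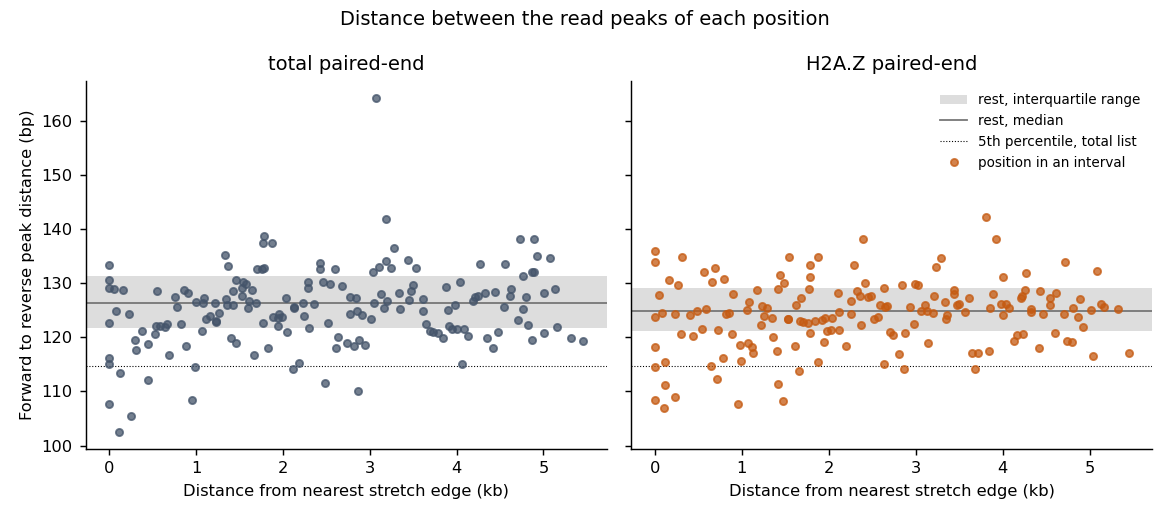
Distance in bp between the forward and reverse read peaks of each paired-end position in the intervals against the distance in kb from the nearest edge of an empty stretch, for total chromatin and the H2A.Z library. The grey line and band are the median and interquartile range of the rest, and positions under the dotted line at 114.8 bp are most frequent within 1 kb of the edges.

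Shares in the top of the lists were lower in the intervals, mostly within counting error. Of total paired-end centres 11 of 174, or 6.32% (3.57 to 11.0%), were in the top 10% of their list, against 11.2% of the rest and 9.99% of the list. Of H2A.Z paired-end centres 11 of 170, or 6.47% (3.65 to 11.2%), were in the top 10%, against 10.9% of the rest and 9.98% of the list. The differences were -4.87 percentage points (-8.04 to -0.02) and -4.43 (-7.67 to 0.52), the second within counting error. In the top 25% the differences were -11.8 (-17.1 to -5.26) and 6.63 (-0.29 to 14.3), so the H2A.Z direction changed with the limit. In single-end data 9 of 135 total centres (6.67%, against 9.99% of the list) and 9 of 132 H2A.Z centres (6.82%, against 9.95%) were in the top 10%, and both differences from the rest were within counting error (-4.39, -7.97 to 1.34, and -4.13, -7.77 to 1.71). The paired-end counts were uneven over the intervals: 1 of 76 H2A.Z centres of the first interval and 10 of 94 of the second were in the top 10%, and 7 of these 10 lay right of the fourth stretch.

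The highest-scoring total paired-end centres of the first interval stood together far from the stretches, at 93664 bp (rank 9), 94599 bp (rank 16) and 94754 bp (rank 19), with H2A.Z percentiles of 86.3, 85.6 and 84.1 at the nearest centres. Those of the H2A.Z list were at 94329 bp (rank 55), 82290 bp (rank 238) and 81817 bp (rank 265). In the second interval the highest total centres were at 155337 bp (rank 71), 155049 bp (rank 129) and 147636 bp (rank 136), and the highest H2A.Z centres at 143652 bp (rank 17), 155060 bp (rank 18) and 155338 bp (rank 39). The positions near 155.1 and 155.3 kb were thus high in both libraries, and no position within 1000 bp of an edge except that at 147636 bp was among the 3 highest of a list in its interval.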

How the data were processed

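The authors deposited, for each library, a list of predicted nucleosome centres on chromosome III from paired-end data and another from single-end data, per the file headers and names. Centres come from PING, named in the series title, which models the reads of both strands. Per the submitters' processing notes BWA, SAMtools and sacCer2 were used, without tool versions, and how reads were filtered is not stated. Deposited centres, peak distances and variances are in bp or squared bp, the deposited mixing weight is a fraction, and the deposited score has no stated scale, per the file headers.

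All entries of the lists were used. Distances, percentiles, matches within 20 bp and intervals were computed with Python 3.11.15, numpy 2.4.6, scipy 1.17.1 and pandas 2.3.3, and the figures with matplotlib 3.10.9. Spacing shares, matches, differences between the intervals and other centres, and the interval of a single median were checked on simulated data with planted values. The combined intervals of differences, the near-edge contrasts and the effect of dependent neighbouring centres were not checked in this way. Distances between read peaks were called short below the 5th percentile of the total paired-end list. Edges of the empty stretches are those of the total paired-end list. The intervals, the measures and the named positions (those at the edges, isolated, highest-scoring, with extreme differences or beside a limit) were chosen with earlier results of these data known. No group had replicates, so differences are values with counting intervals.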

Additional observations from a re-analysis of the deposited data

Results flagged for a closer look

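Score percentiles differed in opposite directions in the libraries. Centres of the intervals had a median percentile -8.27 points from that of the rest in total chromatin and 8.59 points from it in the H2A.Z library, both in paired-end data. The directions were the same in single-end data, where the H2A.Z difference of 6.70 points (-0.16 to 15.8) was within counting error. Within the intervals, centres up to 1000 bp from an edge of an empty stretch stood -29.6 points from the centres farther out in total chromatin and 5.97 points from them in the H2A.Z library, where the difference was within counting error and was -13.9 points without the right flank of the second interval. With 1 library of each kind, these differences between libraries were not tested.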

How the results depend on the processing

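Under 163 alternatives to 21 values, 151 stayed within the counting interval of the value reported. Of the 13 values whose interval leaves out 0, the sign was kept under 104 of 105 alternatives, and the interval included 0 under 18. The exception was the fuzziness of H2A.Z centres, which differed from the rest by -1.10 bp in paired-end and 1.15 bp in single-end data, while in total chromatin it went from -0.23 to 2.48 bp. Its interval also included 0 in the upper 75% of scores (-0.77, -1.46 to 0.08) and with close centres removed (-1.01, -1.87 to 0.01). The other values that left their interval are as follows. With pairs under 73 bp in place of 100 bp, the excess of close H2A.Z centres was 4.58 points (-0.78 to 11.3). The difference in isolated total centres was -2.45 points with whole identifiers only and -1.27 points at 180 bp, and that of H2A.Z centres was -1.29 points at 180 bp. In the top 25% in place of the top 10% the difference was -11.8 points in total and 6.63 points in H2A.Z data, so the H2A.Z direction changed, and the top 10% difference in total included 0 in single-end data, with close centres removed (-5.17, -9.52 to 1.43) and with the members farthest from the stretches left out (-4.61, -7.88 to 0.41). The difference in matched share was -9.87 points (-19.1 to -1.37) with close centres removed and 11.8 points (2.75 to 19.7) with whole identifiers only. The near-edge excess of short peak distances in total chromatin was 5.92 points in single-end data and 6.30 points at an edge limit of 2000 bp. The cause of these changes was not tested.

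The near minus far difference of H2A.Z against total, 17.7 points, ran from 16.5 to 27.5 points under its alternatives, each flank left out in turn included. Its interval reached below 0 with the right flank of the second interval left out (19.6, -0.65 to 31.6), with a match within 10 bp (17.9, -4.50 to 31.9), with close centres removed (20.2, -0.81 to 37.9) and for total percentiles under 50 (17.6, -1.88 to 31.4). This difference, that of short peak distances and the alternatives by flank, by total percentile and by reverse variance were chosen after seeing the data. No paired analysis was possible because each group has 1 library. Unknown depth limits all values.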

Other observations

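The identifiers of the entries run in order along the chromosome in the single-end lists and mostly so in the paired-end lists. Out of order were 16 of 2353 entries of the total paired-end list, 7 of them between 84608 and 88126 bp, and 12 of 2264 entries of the H2A.Z paired-end list, 7 of them between 84585 and 88117 bp. The single-end lists had 0 such entries. How the authors' processing gave these numbers is not given in the sources used here.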
